A study of Mus musculus with 6 samples.

Results

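Radial glia are the stem cells of the embryonic brain: their cell bodies line the ventricle, their long processes reach the outer surface, and they give rise first to neurons and later to astrocytes and oligodendrocytes. The 10 genes described here are used to recognise radial glia or the astroglial cells that descend from them, and were taken from the table by gene symbol, from a list drawn up with earlier results of these data known: Fabp7, Slc1a3, Vim, Nes, Tnc, Hopx, Ptprz1, Aldh1l1, Gfap and Sparcl1. All 10 were present in the deposited table of 55416 genes, and 9 of them had enough reads to be tested, Gfap being the exception. RNA came from the ganglionic eminences, the swellings of the ventral embryonic forebrain, of E13.5 mouse embryos, E standing for embryonic day. The embryos were knockouts of Dlx1 and Dlx2 together (double knockout, 3 libraries) or wild-type littermates (3 libraries). Dlx1 and Dlx2 encode homeodomain transcription factors of differentiating ventral forebrain neurons. The study's title links DLX proteins with the Notch pathway and the choice of cell fate, and the question put to these genes is whether the progenitor and glial side differed in the double knockout. The strain, the design of the deleted alleles, the sex of the embryos and any pooling of embryos are not given in the sources used here.

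In Notch-responsive progenitors of the forebrain, signalling between neighbouring cells holds some cells in the radial glial state while others leave it as neurons. Fabp7, a fatty acid binding protein, and Slc1a3, a glutamate transporter, are made by radial glia and kept by astrocytes, whereas the intermediate filament genes Vim and Nes are highest in radial glia, and Gfap, another intermediate filament gene, appears in mouse forebrain only when astrocytes form. Aldh1l1, a folate enzyme, and Sparcl1, a secreted glycoprotein, are used as astrocyte markers, though Sparcl1 is also made by blood vessels and neurons. Tnc, an extracellular matrix glycoprotein, Hopx, a small homeodomain protein that does not bind DNA, and Ptprz1, a receptor tyrosine phosphatase, mark the outer radial glia of large brains and are made by other radial glia in the mouse. Ptprz1 is also made by oligodendrocyte precursors, and binds Tnc.

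Ptprz1 was the only gene of the 10 that passed the threshold given below. Nes and Vim were both lowest in wild-type replicate 1 and highest in double knockout replicate 3. The stretch upstream of the transcription start is shown for these genes and for Fabp7. Each is the 250 bases before the start, 5′ to 3′, from RefSeq's promoters on GRCm38.p6, a different build from the GRCm39 named in the submitters' processing notes. Capitals mark matches to any of the 8 motifs searched on both strands.
Ptprz1, chr6:22875252-22875501, plus strand: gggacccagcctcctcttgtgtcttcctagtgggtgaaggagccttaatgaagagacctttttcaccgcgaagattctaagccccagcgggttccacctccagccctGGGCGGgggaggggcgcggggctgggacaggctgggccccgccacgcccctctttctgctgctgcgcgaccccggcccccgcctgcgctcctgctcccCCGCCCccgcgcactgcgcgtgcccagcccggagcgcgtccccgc
Fabp7, chr10:57784673-57784922, plus strand: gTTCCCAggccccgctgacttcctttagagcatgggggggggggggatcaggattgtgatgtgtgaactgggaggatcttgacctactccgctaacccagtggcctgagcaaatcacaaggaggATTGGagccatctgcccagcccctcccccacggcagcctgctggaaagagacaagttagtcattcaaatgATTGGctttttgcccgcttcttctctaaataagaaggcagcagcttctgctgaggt
Nes, chr3:87970843-87971092, plus strand: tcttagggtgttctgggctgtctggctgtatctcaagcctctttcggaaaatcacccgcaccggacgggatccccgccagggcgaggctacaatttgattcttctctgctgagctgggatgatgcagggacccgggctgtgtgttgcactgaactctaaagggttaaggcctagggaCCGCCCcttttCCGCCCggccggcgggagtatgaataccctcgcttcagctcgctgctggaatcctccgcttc
Vim, chr2:13574061-13574310, plus strand: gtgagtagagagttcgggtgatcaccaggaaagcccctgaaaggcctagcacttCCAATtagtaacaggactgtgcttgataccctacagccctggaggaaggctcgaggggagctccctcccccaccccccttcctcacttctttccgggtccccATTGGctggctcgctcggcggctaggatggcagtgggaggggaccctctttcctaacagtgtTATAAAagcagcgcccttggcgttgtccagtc
The table held 11 promoters for 9 of the 10 genes, with separate starts for Tnc and Hopx. The core letters bound by RBPJ, the DNA-binding partner of Notch, TGGGAA, were found upstream of 4 genes, Fabp7, Tnc, Aldh1l1 and Gfap, and in 21.6% of all 32851 promoters of the same length. In Fabp7 the match lay from base -249 to base -244, at the far edge of the window. The homeodomain core TAATTA was upstream of 0 of the 9 genes and in 4.84% of all promoters. SOX (ACAATG, 10.7% of all promoters) and proneural E-box (CAGCTG, 13%) letters were also in 0 of the 9, and NFI half-site letters (TTGGCA, 12.3%) were in Tnc. GC boxes (GGGCGG, 32.7% of all promoters) were in 5 of the 9, including Ptprz1 and Nes, CCAAT boxes (CCAAT, 33.8%) in 5, including Fabp7 and Vim, and TATA boxes (TATAAA, 12.4%) in 3, including Vim. No listed motif was shared by Nes and Vim. The Ptprz1 stretch had the highest GC content of the 11, at 71.6%, against a median of 52.4% over all promoters. These matches describe letters and not occupied sites.

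Total counts were between 56618090 and 70114173 per library. Values are CPM, read counts relative to library size, scaled by TMM (trimmed mean of M values), and a count of 3, taken as the least a library can show, corresponds to 0.0432 to 0.0520 CPM. Dlx2 was at 282 to 313 CPM in the wild type and 7.503 to 10.985 CPM in the double knockout, and Dlx1 was at 434 to 446 and 74.9 to 94.0 CPM, and every library fitted its label. The ventral gene Gsx2, of lateral and caudal eminence progenitors, was at 21.9 to 26.0 CPM in the wild type and 32.9 to 42.6 CPM in the double knockout, and Nkx2-1, of the medial eminence, at 118 to 139 and 169 to 231 CPM. Both rose (edgeR adjusted p 0.0204 and 0.0322), and the part of such regional genes in the levels of the 10 genes was not tested. The cortical genes Emx1 and Neurod6 were also present, at 14.3 to 16.0 and 194 to 208 CPM in the wild type and at 11.1 to 12.7 and 125 to 180 CPM in the double knockout, without overlap and without passing the threshold (edgeR adjusted p 0.108 and 0.101). Wild-type replicate 1 held 1540 reads of Ttr, a choroid plexus gene, against at most 10 in any other library, and its summed choroid plexus and roof plate markers were at 33.1 CPM against 1.24 to 4.82 CPM elsewhere.

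Ptprz1 was the only 1 of the 9 tested genes that passed the threshold, an adjusted p below 0.05 (edgeR quasi-likelihood, Benjamini-Hochberg over 23628 genes), and it was higher in the double knockout. It was at 615, 615 and 639 CPM in wild-type replicates 1 to 3 and at 955, 910 and 887 CPM in the double knockout. The groups did not overlap and the replicates lay close together, with coefficients of variation of 2.25% and 3.74%. Its log2 fold change was 0.56 (SE 0.0567, 95% confidence interval 0.43 to 0.69), the edgeR adjusted p was 0.00141, and the double knockout mean was 147% of the wild-type mean. Of all tested genes 2.68% were called, 1.34% higher and 1.34% lower (317 each), and Ptprz1 ranked 101 by p-value among them. With scaling by total count 60.4% of the called genes were higher, in place of 50%. Ptprz1 remained called in all 14 alternative fits, with log2 fold changes from 0.53 to 0.59. In tissue RNA, more cells that make a transcript and more of it per cell cannot be told apart.

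**Figure D1:**
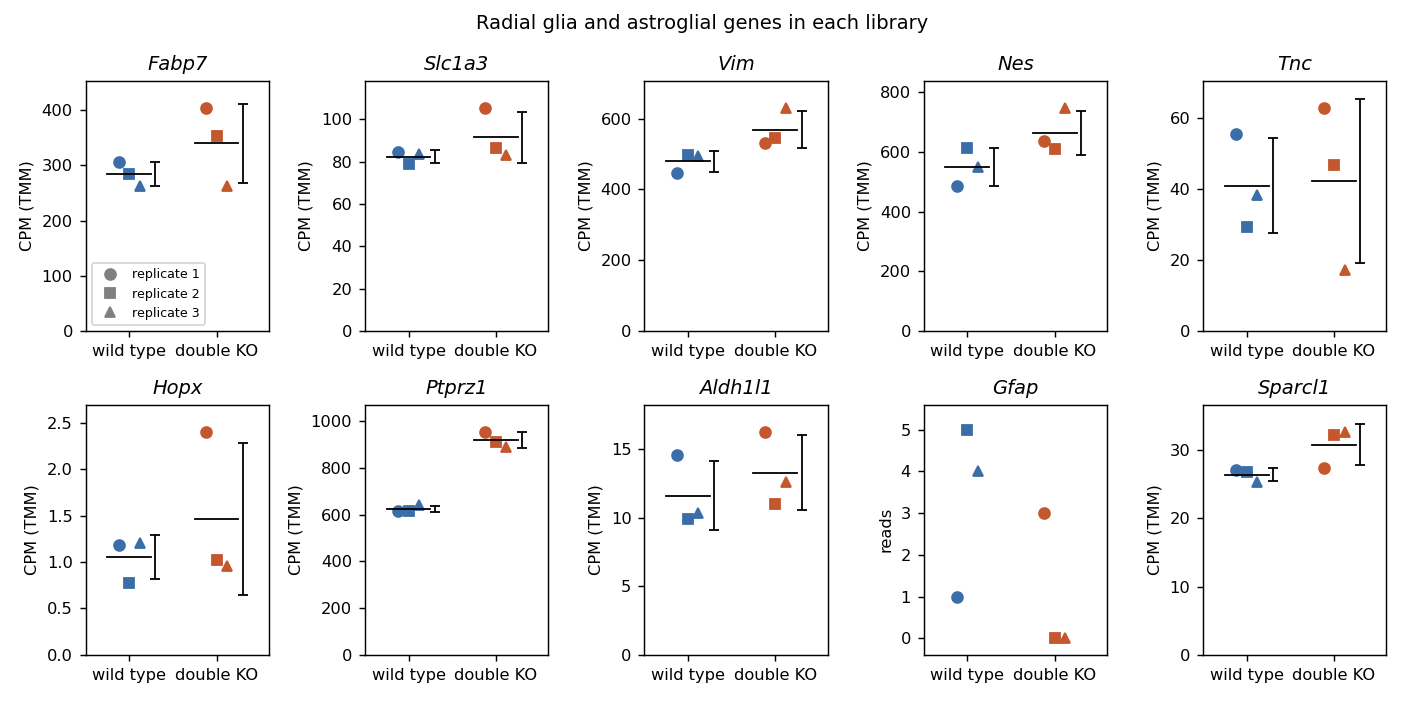
Level of each of the 10 genes in every library, in TMM-scaled CPM (Gfap in reads), with wild-type libraries in blue and double knockout libraries in orange, a symbol per replicate, and the group mean (line) with its SD (bar, n = 3; none for Gfap). Ptprz1 sits at 887 to 955 CPM in the double knockout, above 615 to 639 CPM in the wild type, while of the other 8 tested genes only Vim and Sparcl1 do not overlap between groups. All double knockout libraries lie above the wild type in 9.3% of all tested genes.

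The intermediate filament genes of radial glia had higher means in the double knockout without passing the threshold. Vim was at 446, 496 and 496 CPM in wild-type replicates 1 to 3 and at 533, 545 and 630 CPM in the double knockout. All 3 double knockout libraries thus lay above the wild type, a pattern found in 9.3% of all tested genes. The log2 fold change came to 0.25 (SE 0.0797, 95% confidence interval 0.07 to 0.43; edgeR adjusted p 0.198). Nes was at 487, 613 and 550 CPM in the wild type and 635, 609 and 747 CPM in the double knockout, and the groups overlapped by a single pair of libraries. This gave a log2 fold change of 0.27 (SE 0.103; edgeR adjusted p 0.290). Of Gfap there were 1, 5 and 4 reads in wild-type replicates 1 to 3 and 3, 0 and 0 reads in the double knockout. These counts are near the floor of 3 reads, and no fold is given.

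Fabp7 and Slc1a3 varied more among the double knockout libraries than between the genotypes. Fabp7 was at 306, 284 and 262 CPM in the wild type and at 404, 353 and 263 CPM in the double knockout. Double knockout replicates 1 and 2 were above every wild-type library, and replicate 3 was within the wild-type range. The log2 fold change came to 0.26 (SE 0.139; edgeR adjusted p 0.495). Without double knockout replicate 3 it was 0.42 with an edgeR adjusted p of 0.0294, and without replicate 1 it was 0.12. Slc1a3 was at 84.6, 79.0 and 83.5 CPM in the wild type and 105, 86.3 and 83.0 CPM in the double knockout, with only replicate 1 and, narrowly, replicate 2 above the wild type. The log2 fold change came to 0.15 (SE 0.0866; edgeR adjusted p 0.529), with a 95% confidence interval from -0.05 to 0.35.

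**Figure D2:**
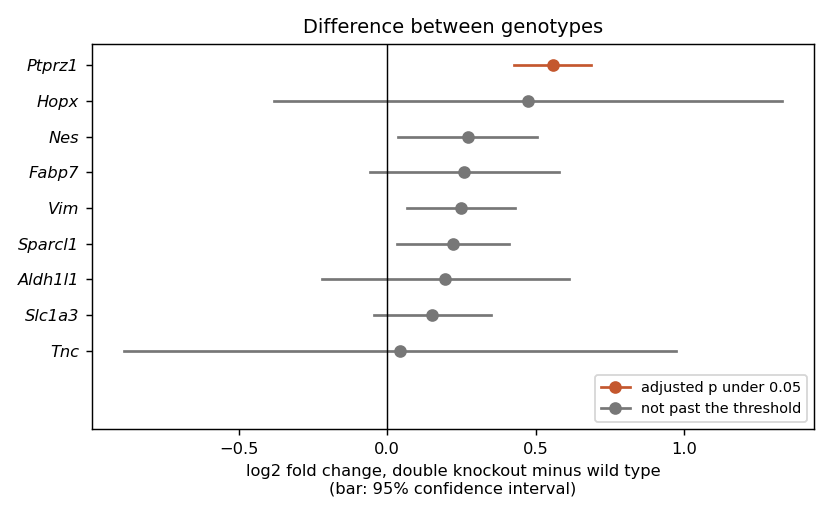
Log2 fold change, double knockout minus wild type, of the 9 tested genes (points) with 95% confidence intervals (bars), in orange where the adjusted p was under 0.05. The interval of Ptprz1 runs from 0.43 to 0.69, and the intervals of Tnc and Hopx span 0 widely.

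Tnc and Hopx, which with Ptprz1 are known from outer radial glia, had the widest spread of the 9 genes in the double knockout. Tnc was at 55.4, 29.3 and 38.3 CPM in the wild type and at 62.9, 46.8 and 17.2 CPM in the double knockout, where the highest library was 3.66 times the lowest. The double knockout thus held both the highest and the lowest library of the 6. The log2 fold change came to 0.04 (SE 0.408; edgeR adjusted p 0.983), and the 95% confidence interval ran from -0.89 to 0.97. Hopx was the lowest of the 9 tested genes, with 50 to 156 reads per library. It was at 1.18, 0.778 and 1.20 CPM in the wild type and 2.40, 1.02 and 0.951 CPM in the double knockout. Double knockout replicate 1 alone stood above the rest, and without it the log2 fold change was -0.09 in place of 0.47 (SE 0.375, edgeR adjusted p 0.688). For Tnc it was -0.36 without the same library. Exons of the antisense gene Hopxos cover 27.2% of the exon length of Hopx on the opposite strand in GENCODE M21, and whether counting used strand is not given in the sources used here, so the counts of Hopx are uncertain.

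The astrocyte markers Aldh1l1 and Sparcl1 were low to moderate and did not pass the threshold. Aldh1l1 was at 14.6, 9.94 and 10.4 CPM in the wild type and 16.3, 10.996 and 12.6 CPM in the double knockout, with replicate 1 highest in both genotypes. For Aldh1l1 the log2 fold change was 0.19 (SE 0.183; edgeR adjusted p 0.747). An opposite-strand gene, Gm15756, covers 11.1% of its exon length, which leaves its counts uncertain. Sparcl1 was at 27.1, 26.8 and 25.3 CPM in the wild type and 27.3, 32.2 and 32.7 CPM in the double knockout. Its groups did not overlap, but double knockout replicate 1 lay just above the wild type. For Sparcl1 the log2 fold change was 0.22 (SE 0.0828; edgeR adjusted p 0.282).

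Together the fitted log2 fold changes of the 9 tested genes were all above 0, with a median of 0.25, against 49.5% above 0 and a median of 0.00 over all tested genes. The 10 dividing cell markers were also all above 0, with a median of 0.10 and 0 called. Tnc and Hopx are among the 9, and their signs turned in other fits. The list was drawn up with earlier results of these data known, and its genes share the same 6 libraries. The common direction is therefore a description and not a test. At an unadjusted p under 0.05 in edgeR, 4 of the 9 were higher (Vim, Nes, Ptprz1 and Sparcl1) and 0 lower, where 6.52% of all tested genes were higher and 6.81% lower. None of the 9 was called lower by edgeR, DESeq2 or limma-voom, and each tool called 1 of them higher. The summed level of the 10 genes was 2037 to 2154 CPM in the wild type and 2594 to 2741 CPM in the double knockout. Leaving out Ptprz1 the sums were 1422 to 1539 and 1684 to 1787 CPM, again without overlap. Vim and Nes make up most of that remainder.

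Per length of exon, Fabp7 was the highest of the 9 genes in both genotypes, although Ptprz1 drew the most reads. The RPKM scale divides CPM by exon length in kilobases, here the length of all annotated exons of a gene merged. That length is at least that of any single transcript, and the order of the genes depends on it. Fabp7 was at 227 ± 17.2 RPKM (SD, n = 3) in the wild type and 272 ± 57.4 in the double knockout. The order below it was Vim, Nes, Ptprz1, Slc1a3, Sparcl1, Tnc, Aldh1l1 and Hopx in both. In the wild type Vim and Nes, at 101 ± 6.05 and 85.7 ± 9.83 RPKM, were the only neighbours with overlapping ranges. The ranges of Slc1a3 and Sparcl1 nearly met there, with a lowest library of 9.25 and a highest of 9.24 RPKM. In the double knockout Slc1a3 and Sparcl1, at 10.7 ± 1.41 and 10.5 ± 1.01 RPKM, and Tnc and Aldh1l1, at 5.44 ± 2.98 and 2.94 ± 0.601 RPKM, overlapped as well as Vim and Nes. Ptprz1 moved from 43.7 ± 0.985 to 64.4 ± 2.41 RPKM and kept its place. At the bottom, Hopx was at 0.694 ± 0.157 and 0.963 ± 0.540 RPKM.

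Within the double knockout the genes differed in which library was highest. Replicate 1 was the highest of the 3 for 6 genes, Fabp7, Slc1a3, Tnc, Hopx, Aldh1l1 and Ptprz1, and replicate 3 was the highest for Vim, Nes and Sparcl1. For Sparcl1 replicates 2 and 3 were close, at 32.2 and 32.7 CPM, and Ptprz1 varied little, with a coefficient of variation of 3.74%. Relative to the wild-type mean on the log2 scale, replicate 3 was at 0.40 for Vim and 0.44 for Nes but at -0.11 for Fabp7 and -1.25 for Tnc. In replicate 1 the same genes were at 0.15, 0.21, 0.51 and 0.62. In the wild type, replicate 1 was the lowest library for Vim and Nes and the highest for Fabp7, Slc1a3, Tnc, Aldh1l1 and Sparcl1. The double knockout coefficients of variation of all 9 genes except Ptprz1, from 9.37% for Vim to 56.1% for Hopx, were above the 7.75% median of tested genes averaging 1 CPM or more. In the wild type those of Fabp7, Nes, Tnc, Hopx and Aldh1l1, from 7.59% to 32.3%, were above the median of 6.41%, and those of Aldh1l1 and Nes were no smaller there than in the double knockout. Double knockout replicate 3 also had the highest summed level of 10 dividing cell markers, 2706 CPM against 2098 and 2157 CPM in the other double knockout libraries, and the lowest of 10 neuron markers, 5561 CPM against 6349 and 6523 CPM. In double knockout replicate 3 Nr2f2, a listed regulator of glial fate, was at 115 CPM, against 338 and 351 CPM in replicates 1 and 2. Nr2f2 was at 295 to 356 CPM in the wild type. Slc1a2 was at 142 CPM in double knockout replicate 3, against 269 and 274 CPM, and Nkx2-1 at 231 CPM, against 179 and 169 CPM. In wild-type replicate 1 the choroid plexus genes stood high, as given above. The part of these markers and regional genes in the levels of the 10 genes was not tested.

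**Figure D3:**
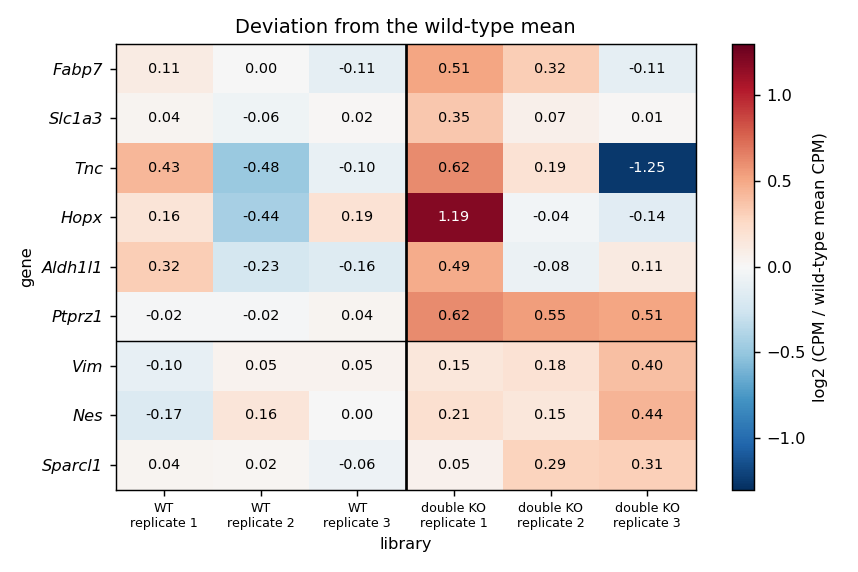
Log2 of each gene's CPM over its wild-type mean in every library, with wild-type libraries left and double knockout libraries right of the line. The 6 upper genes are highest in double knockout replicate 1 and the 3 lower genes in double knockout replicate 3, and Tnc reaches -1.25 in the latter.

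Several other genes of radial glia and neural stem cells rose. Of 17 such genes, 5 were higher and 0 lower, with a median log2 fold change of 0.29, and at an unadjusted p under 0.05 in edgeR 10 were higher and 1 lower. DESeq2 and limma-voom called 0 of them lower and 8 and 5 higher. Over all tested genes edgeR called 1.34% higher and 1.34% lower, with 6.52% and 6.81% at an unadjusted p under 0.05. These shares are the reference for the edgeR counts of each list below. Of the same 23628 genes DESeq2 called 1168, with 592 of them higher, and limma-voom called 615, with 301 of them higher. The DESeq2 and limma-voom counts of each list are to be read against these. Ednrb, an endothelin receptor gene, rose from 107 ± 1.43 to 196 ± 22.3 CPM (SD, n = 3) (log2 fold change 0.88, SE 0.0781, edgeR adjusted p 7.58e-04). Ttyh1, a membrane protein gene of neural stem cells, rose from 125 ± 2.28 to 189 ± 15.3 CPM, and the SOXB1 genes Sox3 and Sox1, which keep cells in the progenitor state, had log2 fold changes of 0.53 and 0.45. Sox1 lost its call without wild-type replicate 1 or 2, with edgeR adjusted p of 0.0561 and 0.0525. The fifth gene was Msi2, with a log2 fold change of 0.38. The most abundant genes of the list that did not pass, Cdh2 and Msi1, had log2 fold changes of -0.13 and 0.16.

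Among 8 genes associated with outer radial glia, 0 were called in edgeR in either direction, with 4 higher and 0 lower at an unadjusted p under 0.05, and the median log2 fold change was 0.22. DESeq2 called 1 of them higher and limma-voom 0. Pea15a and Palld, the most abundant, had log2 fold changes of 0.34 and 0.29, with edgeR adjusted p of 0.0874 and 0.269. Pea15a was called with DESeq2, with total count scaling, without a filter and without double knockout replicate 3, and Palld with the replicate number as a block (edgeR adjusted p 0.0319).

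Of 17 tested genes of astrocyte maturation, 1 was higher and 0 lower, with a median log2 fold change of 0.19, and 7 were higher and 0 lower at an unadjusted p under 0.05 in edgeR. DESeq2 called 2 higher and 0 lower, and limma-voom called 0 in either direction. Hepacam, an adhesion molecule of astrocytes, rose from 1.31 ± 0.275 to 3.27 ± 1.005 CPM (log2 fold change 1.32, SE 0.260, edgeR adjusted p 0.0355). This call was lost in 7 of the 14 alternatives, with each of the 6 libraries left out except double knockout replicate 3, with limma-voom and with the Y-linked covariate, at adjusted p of up to 0.139. The glutamate transporter gene Slc1a2, the other main astrocyte transporter beside Slc1a3, was at 245 ± 23.6 and 228 ± 74.9 CPM, and the glutamine synthetase gene Glul at 144 ± 11.1 and 154 ± 10.6 CPM. Gjb6 and Agt had too few reads to be tested, with at most 7 in a library.

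Regulators of glial fate included 3 genes that rose and 0 that fell out of 15, with a median log2 fold change of 0.15 and with 6 higher and 0 lower at an unadjusted p under 0.05 in edgeR. DESeq2 and limma-voom called 0 lower and 4 and 3 higher. Sox9, needed for the switch from neurons to glia, rose from 189 ± 19.6 to 311 ± 38.1 CPM (log2 fold change 0.72, SE 0.102, edgeR adjusted p 0.00773). Zbtb20, a zinc finger gene of late progenitors and astrocytes, rose from 355 ± 32.2 to 579 ± 31.6 CPM (log2 fold change 0.71, SE 0.0771). Lhx2, a LIM homeodomain gene of forebrain progenitors, had a log2 fold change of 0.62. Nfib, a nuclear factor I gene that promotes astrocyte formation, was at 549 ± 30.8 and 515 ± 70.04 CPM and did not pass the threshold, and neither did Nr2f1, with a log2 fold change of 0.23.

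Close relatives of the 10 genes were examined next. Of 18 tested family members, 0 were higher and 1, Smoc1, was lower, with a median log2 fold change of -0.03, and 2 were higher and 4 lower at an unadjusted p under 0.05 in edgeR. DESeq2 called 1 higher and 1 lower, and limma-voom 0 higher and 1 lower. Smoc1, a secreted relative of Sparcl1, fell from 28.7 ± 1.53 to 18.2 ± 1.47 CPM (log2 fold change -0.66, SE 0.0826, edgeR adjusted p 0.00402). Fabp5, of the same family as Fabp7, was at 107 ± 13.3 and 107 ± 2.35 CPM, and the neuronal filament gene Ina was at 524 ± 18.9 and 511 ± 60.7 CPM.

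Of 17 tested genes whose products bind Ptprz1 or Tnc or share their matrix, 2 were higher and 0 lower, with a median log2 fold change of 0.10, and 6 were higher and 0 lower at an unadjusted p under 0.05 in edgeR. DESeq2 and limma-voom called 0 lower and 3 and 2 higher. Bcan, which encodes the proteoglycan brevican of glial precursors and astrocytes, rose from 6.27 ± 0.775 to 21.2 ± 2.81 CPM (log2 fold change 1.76, SE 0.130, edgeR adjusted p 2.55e-04). Itgb8, an integrin subunit gene of radial glia, rose from 119 ± 0.544 to 162 ± 7.10 CPM. Ncan and Ncam1, the most abundant, had log2 fold changes of 0.02 and -0.13. Over the 6 lists, 11 of 92 tested genes were higher and 1 lower. Exons of Tnc, Ttyh1, Zbtb20, Pea15a, Slc1a2, Glul, Nr2f1, Nr2f2, Ina and Ncam1 overlap genes on the opposite strand in GENCODE M21. Those of Sox1, Glul and Zbtb20 overlap a same-strand microRNA gene, and those of Aldh1l1 the same-strand gene Gm45901. These overlaps make the counts uncertain.

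**Figure D4:**
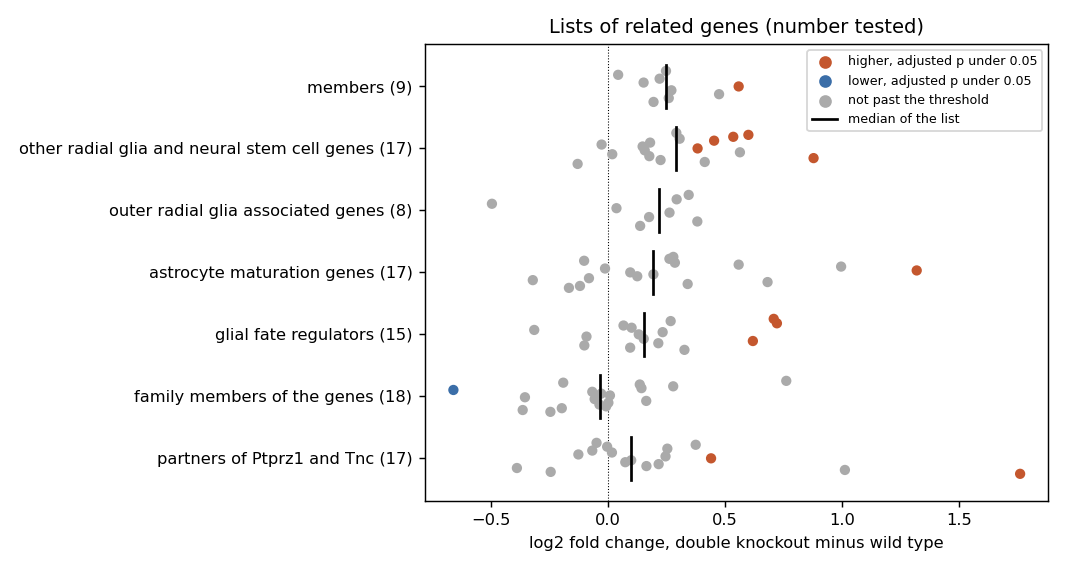
Log2 fold change, double knockout minus wild type, of each tested gene (points) in the 10-gene set ("members") and the 6 lists of related genes, coloured by call, with the median of each list as a black line. Medians run from -0.03 for family members to 0.29 for other radial glia genes.

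Markers of the cells that could also carry these transcripts were followed across libraries. Of 8 oligodendrocyte precursor markers 6 were higher and 0 lower (edgeR, with 6 and 1 at an unadjusted p under 0.05, and DESeq2 and limma-voom both 6 and 0). Over all tested genes edgeR called 1.34% higher and 1.34% lower. The summed level of the 8 markers was 118 to 133 CPM in the wild type and 196 to 229 CPM in the double knockout, without overlap. Olig2 and Cspg5 made up most of that sum. Their means were 47.6 and 49.6 CPM in the wild type and 82.7 and 55.7 CPM in the double knockout. Sox10 rose from a mean of 1.38 to 6.34 CPM. Cspg5 was not called, and 1 of the 8 markers had a log2 fold change below 0. The part of the 8 markers in the rise of Ptprz1 was not tested. Of 10 neuron markers 0 were higher and 2 lower in edgeR (0 and 6 at an unadjusted p under 0.05, and 0 and 4 in both DESeq2 and limma-voom), with sums of 6803 to 7462 and 5561 to 6523 CPM. The 10 dividing cell markers had sums of 1902 to 2210 and 2098 to 2706 CPM, and 0 were called in edgeR, DESeq2 or limma-voom, with 1 higher and 0 lower at an unadjusted p under 0.05. Whether the neuronal share of the RNA takes part in the levels of the 10 genes was not tested. Endothelial, mural, meningeal, microglial and blood markers, 8 genes each, were called in 0 cases by the 3 tools and at an unadjusted p under 0.05, and their sums overlapped between genotypes, endothelial ones at 123 to 143 and 128 to 150 CPM. No gene of these lists was at 0 in all 6 libraries.

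**Figure D5:**
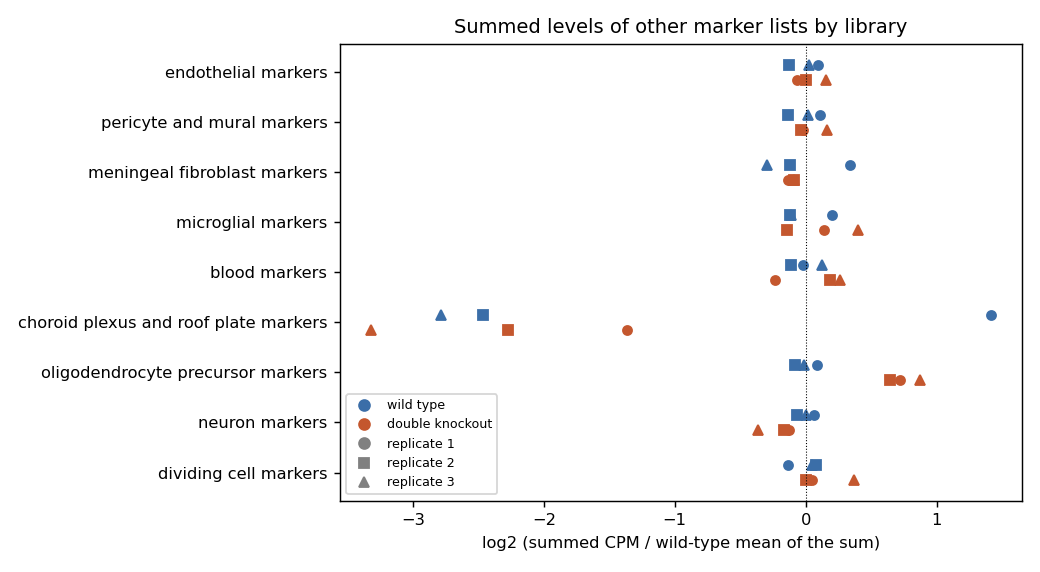
Log2 of the summed CPM of each list of other markers over the wild-type mean of that sum, with wild-type libraries in blue and double knockout libraries in orange. Oligodendrocyte precursor markers separate by genotype, and wild-type replicate 1 stands apart for choroid plexus and roof plate markers at 33.1 CPM.

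The genes whose levels ran closest to those of Ptprz1 over the 6 libraries were Chrna4, a nicotinic receptor subunit gene, Efna5, an ephrin gene, and B3galt2, a glycosyltransferase gene. Pearson's r of log2 CPM was 0.998, 0.995 and 0.995, the 3 highest of 12360 genes averaging 5 CPM or more. All 3 were themselves called higher in the double knockout, with log2 fold changes of 0.96, 0.71 and 0.58. With 2 groups and 6 points, these values describe the difference between groups and the libraries' shared scaling as much as the genes.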

How the data were processed

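The authors deposited whole-number read counts per gene for 6 total RNA libraries. Per the labels' protocols, RNA was treated with DNase and libraries were stranded and depleted of ribosomal RNA, so unspliced transcripts are included. The submitters' processing notes name featureCounts and GRCm39. The aligner, annotation release and strand and multi-mapping settings are not given in the sources used here. Of 55416 table genes 1492 had no symbol. Groups came from sample titles. The labels do not say whether libraries of a group came from separate embryos, so p-values measure only the spread between these libraries, which may be technical.

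Genes were kept by filterByExpr (minimum count 10, minimum total 15), scaled by TMM and tested with edgeR 4.0.16 (quasi-likelihood, prior count 0.125, Benjamini-Hochberg, called at 0.05) in R 4.3.3. Run on simulated counts, the procedure recovered most changed genes, with a share of false calls above the nominal 0.05. Standard errors are the fitted coefficient over the square root of F. Exon lengths and overlaps came from GENCODE M21 (GRCm38), which held 94% of the table's identifiers. Confidence intervals come from the spread of replicates and floors cover counting error only, and reads are not independent molecules.

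The 10 genes, the lists and the tests were chosen with earlier results of these data known. Named genes are the 10 genes and, per list, up to 4 called genes by fold change and the 2 most abundant others. Msi2, Gjb6, Agt, Ttr, Gsx2, Nkx2-1, Emx1, Neurod6, Nr2f2, Olig2, Cspg5 and Sox10 were added after values were seen. Ptprg, on the list of relatives, was not analysed here. Alternatives were DESeq2 1.42.0, limma-voom (limma 3.58.1), DESeq2 size factors, total count scaling, no filter, a mean of 1 CPM, a replicate block, a Y-linked covariate (sex is not labelled), an adjusted p under 0.01, and leaving out each library.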

Additional observations from a re-analysis of the deposited data

How the results depend on the processing

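The count of 1 gene of the 10 called higher, and 0 lower, was the same in every alternative except one: without double knockout replicate 3 Fabp7 joined Ptprz1, so the fits without a library gave 1 to 2 higher. Of the related genes, 11 were higher in edgeR, 19 with DESeq2 and 17 without a filter on low counts. Leaving out a library gave 8 (without wild-type replicate 2) to 17 (without double knockout replicate 3). Over all tested genes 317 were higher in edgeR, 592 with DESeq2 and 460 without a filter, the last among 37916 genes. All-gene counts were 143 without wild-type replicate 2 and 391 without double knockout replicate 3. The causes of these changes were not tested. The replicate block gave 1 of the 10 genes higher, with a log2 fold change of 0.56 for Ptprz1, and 15 related genes higher. Of all tested genes 329 were higher with the block. Same-numbered libraries had correlations of -0.0694, -0.00223 and 0.00182 in their deviations from group means, and none matched best with its own number, so the numbers were not taken to pair libraries. Among the 9 tested genes 119 of 126 alternative values kept direction and side of the threshold.

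Among the named genes other than those added after values were seen, signs turned only for those that did not pass the threshold. For Tnc the log2 fold change was -0.11 with limma-voom, -0.084 with the replicate block and -0.36 to 0.43 with a library left out. Leaving out a library gave -0.091 to 0.72 for Hopx, -0.25 to 0.16 for Slc1a2, -0.091 to 0.066 for Ina, -0.10 to 0.066 for Fabp5 and -0.044 to 0.061 for Ncan. Fabp5 was at 0.021 with total count scaling, 7.3e-05 with limma-voom, 0.0026 without a filter and 0.0044 with a filter at a mean of 1 CPM, and Ncan at -0.0022 with the Y-linked covariate. Depth limits Gfap most, with 13 reads in all. Hopx, at 50 to 156 reads per library, had coefficients of variation of 22.6% in the wild type and 56.1% in the double knockout. Gfap, tested without a filter, had an edgeR adjusted p of 0.761.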
